A study of Mus musculus with 92 samples.

Results

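Aicardi-Goutieres syndrome is an inherited inflammatory disease of the brain in which enzymes that edit or degrade nucleic acids are lost and type I interferon is made without infection. The 7 genes described here are the mouse genes of these enzymes, Adar, Trex1, Samhd1, Rnaseh2a, Rnaseh2b and Rnaseh2c, together with Adarb1, the paralog of Adar. They were chosen by what they encode, but with earlier results of these data known. All 7 were found by symbol among the 29956 named genes of the deposited table. Adar encodes ADAR1, which turns adenosine into inosine in double-stranded RNA and so keeps the cell's own RNA from setting off the sensor MDA5. Adarb1 encodes ADAR2, which edits many of the same kinds of RNA but is not a gene of the disease. Trex1 encodes a DNA exonuclease that clears DNA from the cytosol, and Samhd1 encodes an enzyme that breaks down deoxynucleotides. Rnaseh2a encodes the catalytic subunit of ribonuclease H2, which removes ribonucleotides from DNA, while Rnaseh2b and Rnaseh2c encode its other subunits.

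The study asked whether macrophages grown from conditionally immortalised progenitors can replace microglia, and used them to model the disease by editing Adar. Progenitors from the marrow of FVB mice were immortalised with a Hoxb8 protein fused to the estrogen receptor (ER-Hoxb8), grew in estradiol and became macrophages over 7 days in M-CSF without it. Of the 92 RNA-seq libraries, those that carry most weight here are ER-Hoxb8 cells with an Adar1 guide or a non-targeting control (NTC) guide, as progenitors or macrophages, and Adar1 knockout (KO) and NTC macrophages grown with baricitinib at 0, 0.0006, 0.016, 0.4 or 10 uM. The remaining libraries are marrow progenitors and monocytes, bone-marrow-derived (BMD) macrophages, ER-Hoxb8 cells along differentiation, microglia, and microglia-like cells (MLCs).

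The unedited ER-Hoxb8 progenitors, day 4 cells and macrophages came from a Cas9 mouse, while the marrow and BMD cells came from wild-type mice, so their comparisons also differ in Cas9. The guide and baricitinib cells came from a line that carries Cas9 on 1 allele, and both NTC and Adar1 cells received a guide by retrovirus and were sorted as pools, so edited cells are a mixture of indels and not a clone. An indel leaves most of the transcript in place, so the level of Adar mRNA does not measure loss of ADAR1 protein. Baricitinib, an inhibitor of the kinases JAK1 and JAK2, was added with each change of medium during differentiation, and the 0 uM groups are the reference. The KO cells of that series carry sgRNA 1. Doses are those of the titles, but the treatment protocol gives 0.00064 and 0.16 uM where the titles give 0.0006 and 0.016 uM, so the true dose of the groups named 0.016 uM is in doubt. MLCs are donor cells, BMD or ER-Hoxb8, put into the brains of newborn Csf1r-/- FVB pups, which lack microglia, and sorted back around the end of the second week. The ER-Hoxb8 MLC libraries have names that begin with GFPHox (replicates 1 to 3) or WTHox (replicates 4 to 6). The WTHox names also end in Lo, which the titles do not explain. Whether these names stand for different donor lines is not stated in the titles. Nor is it stated whether either is the Cas9 line grown in culture. Microglia came from wild-type FVB brains that received no cells, and their libraries carry the names WT (replicates 1 to 7) and YSWT (replicates 8 and 9). MLCs therefore differ from microglia in origin, in host genotype and in the injection, and these cannot be told apart here.

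Levels are library-scaled log2 CPM as deposited, and values are compared only within the 6 sets of libraries that share their lowest value. Those sets hold 12 early libraries (marrow cells and ER-Hoxb8 cells up to day 4), 27 brain-set libraries (macrophages, MLCs and microglia), 11 libraries of sgRNA 1 and NTC cells, 8 of sgRNA 2 cells, 33 of the baricitinib series, and NTC macrophage replicate 2 alone. The files give no read counts. If their lowest values come from a prior count of 2, mean depth would be 40.6, 24.5, 21.5, 23.6, 13.7 and 17.1 M reads in that order. Each comparison was tested with limma over all genes that passed a low-value filter, and a gene is called at adjusted p below 0.05. These p-values measure spread between the libraries at hand, which are separate ER-Hoxb8 lines in the unedited progenitor, day 4 and macrophage groups. Whether the replicates of edited and NTC cells are more than cultures of the same pool is not stated in the labels. Names of the NTC progenitor libraries begin with NTC2Prog, while those of the tested NTC macrophage libraries begin with NTC alone. Whether these come from the same NTC line is not stated either. All members but Adarb1 passed the filter in every set, that is 6 of 7, and 7 of 7 passed in the brain set, where Adarb1 is above 1 CPM in 8 of 9 microglia libraries and in BMD macrophage replicates 1 and 2. In bulk RNA, fewer cells of a kind and less RNA per cell cannot be told apart. How many of all tested genes fail to overlap between groups was not counted, so remarks on overlap describe levels only.

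Some libraries stand apart from their group. Adar1 KO replicate 2 at 0.4 uM has a mean level of 14 interferon-stimulated genes of 10.51 log2 CPM, against 1.06 and 3.24 in replicates 1 and 3. Its mean of 15 replication genes is 4.88 against 6.83 and 6.86. Because it widens the spread used for the whole series, results of members there are also given without it where a call changed. Results for other gene lists include it. Whether it received the dose on its label cannot be told from the table. Microglia replicate 8 has a median correlation of 0.879 with its group, against 0.966 to 0.982 for the other 8. It also carries RNA of other brain cells, with summed levels of 145 CPM for 5 neuron markers (top gene Stmn2) and 377 for 4 astrocyte markers (top gene Slc1a2). Leaving it out changed no call of a member in the comparisons with microglia. ER-Hoxb8 MLC replicate 6 has the highest mean of interferon-stimulated genes of its group, 8.33 against 6.51 to 7.79, and border macrophage markers of 2.54 CPM against 137 to 1000, and whether it holds the same kinds of cell as the others was not tested. NTC macrophage replicate 2 is in a set of its own, so its values are printed but not tested. It carries 346 CPM summed over 4 erythroid markers (Hbb-bs on top), where replicates 1 and 3 have none above 1 CPM.

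The labelled cell kinds were checked against markers. All 6 macrophage markers in the table were above 1 CPM in every macrophage library of the guide and baricitinib sets, with summed levels of 6550, 7450 and 7200 CPM in sgRNA 1 macrophages and 10700 and 9580 in NTC macrophages. NTC and sgRNA 1 progenitors had 182 to 286 CPM of the same genes and carried 7 of 7 neutrophil-lineage markers, summed 12200 to 25200 CPM, with Mpo on top.

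Adar is the gene targeted by the guides. In NTC progenitors it was at 4.20, 3.42 and 4.28 log2 CPM, and in sgRNA 1 progenitors at 4.36, 4.23 and 4.24. In NTC macrophages it was at 5.73 and 5.67 (5.86 in replicate 2, in its own set), and in sgRNA 1 macrophages at 6.96, 7.15 and 7.01. Cells with sgRNA 2 gave 4.35, 4.56 and 4.36 as progenitors and 7.02, 7.00, 7.02, 7.03 and 6.99 as macrophages. Edited and control progenitors overlap, whereas every sgRNA 1 macrophage library lies above every NTC macrophage library. In the sgRNA 1 set, edited cells thus do not have less Adar mRNA than their controls. The order in the sgRNA 1 set is sgRNA 1 macrophages, NTC macrophages, sgRNA 1 progenitors, NTC progenitors, of which only the last neighbours lie within each other's spread.

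**Figure D1:**
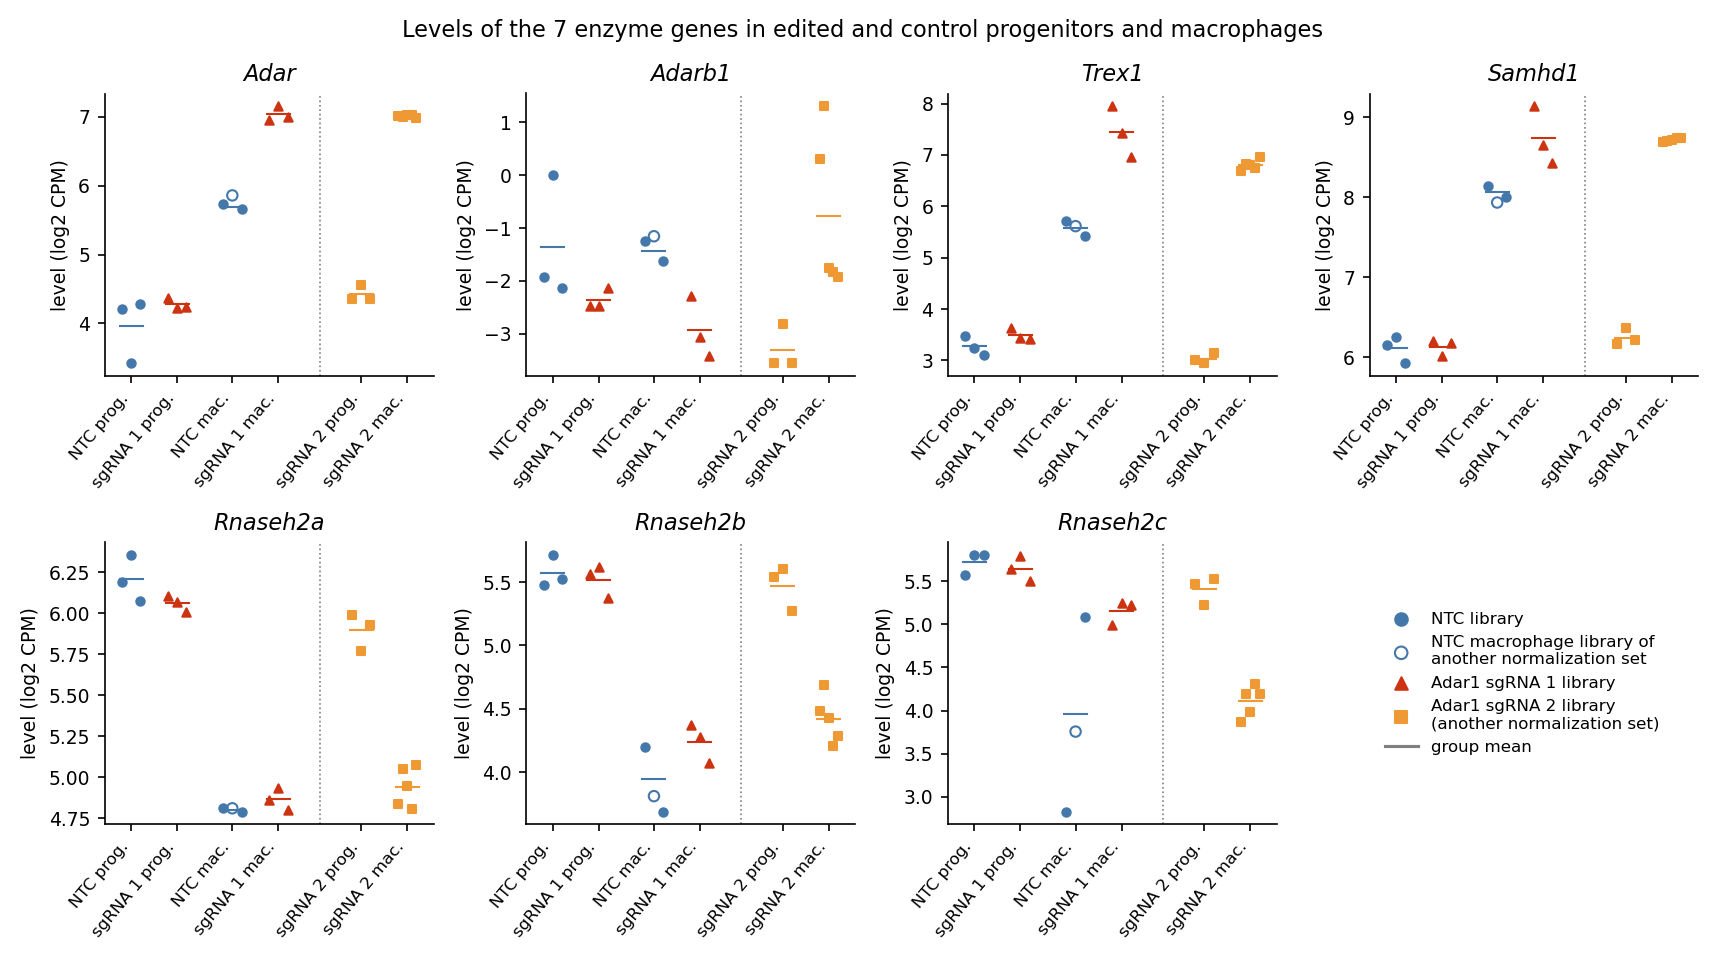
Level (log2 CPM) of each of the 7 members in NTC, sgRNA 1 and sgRNA 2 progenitors and macrophages, with points for libraries and bars for group means; the open circle is NTC macrophage replicate 2 and sgRNA 2 libraries stand right of the dotted line because they belong to another set. Adar, Trex1 and Samhd1 are highest in edited macrophages, with Adar at 6.96, 7.15 and 7.01 for sgRNA 1.

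Trex1, the DNA exonuclease, was at 3.48, 3.24 and 3.11 in NTC progenitors and 3.63, 3.45 and 3.43 in sgRNA 1 progenitors. It stood at 5.72 and 5.42 (5.61 in replicate 2) in NTC macrophages and at 7.95, 7.42 and 6.96 in sgRNA 1 macrophages. Progenitors overlap and macrophages do not. Samhd1, the deoxynucleotide hydrolase, was at 6.15, 6.26 and 5.93 in NTC and 6.20, 6.02 and 6.18 in sgRNA 1 progenitors. Its levels were 8.14 and 8.00 (7.93 in replicate 2) in NTC macrophages and 9.13, 8.65 and 8.43 in sgRNA 1 macrophages, again without overlap. In sgRNA 2 macrophages Trex1 ranged from 6.68 to 6.97 with a median of 6.80 and Samhd1 from 8.69 to 8.74 with a median of 8.71.

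The catalytic subunit gene Rnaseh2a was at 6.19, 6.36 and 6.08 in NTC and 6.10, 6.07 and 6.01 in sgRNA 1 progenitors, and at 4.81 and 4.79 (4.81) in NTC and 4.86, 4.93 and 4.80 in sgRNA 1 macrophages. Rnaseh2b was at 5.47, 5.71 and 5.52 in NTC and 5.56, 5.61 and 5.38 in sgRNA 1 progenitors, and at 4.20 and 3.69 (3.81) in NTC and 4.37, 4.28 and 4.07 in sgRNA 1 macrophages. Both subunits are lower in every macrophage library than in every progenitor library, and edited and control cells overlap. Rnaseh2c was at 5.57, 5.81 and 5.80 in NTC and 5.64, 5.79 and 5.50 in sgRNA 1 progenitors, and at 2.83 and 5.08 (3.76) in NTC and 5.00, 5.24 and 5.23 in sgRNA 1 macrophages. The NTC macrophage libraries lie far apart for Rnaseh2c, and the edited ones overlap with the higher of them. Adarb1 was low and scattered, with -1.93, 0.01 and -2.14 in NTC progenitors, -1.24 and -1.62 in NTC macrophages, and -2.28, -3.07 and the lowest value of -3.43 in sgRNA 1 macrophages. In sgRNA 2 macrophages it was at 0.31, 1.31, -1.76, -1.82 and -1.92, and it was not tested in either set.

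Progenitors held in estradiol divide and are not yet macrophages, though they already carry macrophage markers at low level. Their comparison shows what editing does before differentiation. In sgRNA 1 against NTC progenitors 0 of 6 members were called by limma, where 0.917% of all tested genes were, and 0 members reached unadjusted p below 0.05. The largest difference was that of Adar, 0.31 ± 0.19 (SE; adjusted p = 0.927).

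Macrophages sense and answer interferon strongly, and loss of ADAR1 leaves self RNA able to trigger that answer. The comparison of sgRNA 1 with NTC macrophages has 3 libraries against 2. Here 3 of 6 members were called, all higher with sgRNA 1, where 21.8% of all tested genes were called. Adar rose by 1.34 ± 0.21 (adjusted p = 0.000976). Trex1 rose by 1.87 ± 0.24 (adjusted p = 0.000193). Samhd1 rose by 0.67 ± 0.18 (adjusted p = 0.0216), but it was not called in 4 of 11 alternatives: without NTC replicate 1 (0.74, adjusted p = 0.0673) or NTC replicate 3 (0.60, adjusted p = 0.106), with quantile normalization (0.47, adjusted p = 0.0525) or with only these groups in the fit (adjusted p = 0.0771). Leaving out an NTC library leaves 1 in that arm, which is assumed to vary like the other groups. Rnaseh2a differed by 0.06 ± 0.11 (adjusted p = 0.74) and Rnaseh2b by 0.30 ± 0.17 (adjusted p = 0.233). Rnaseh2c differed by 1.20 ± 0.46 (adjusted p = 0.0832) and was called without NTC replicate 3 (2.33, adjusted p = 1.02e-05), under the same assumption, or with NTC replicate 2 kept (1.19, adjusted p = 0.0346), the library with erythroid RNA. By the study's rule for differential expression, which also asks for a log2 fold change of at least 2 in size, 0 members were called, where 4.05% of genes were. Border macrophage markers (4 genes, Mrc1 on top, Lyve1 at the lowest value) move with this comparison, from 767 and 628 CPM summed in NTC to 78.8, 59.7 and 90.3 in sgRNA 1 macrophages. Neutrophil markers (7 genes, S100a8 on top) sum to 15.5 and 10.8 CPM in NTC and 68.8, 82.1 and 80.8 in sgRNA 1 macrophages, with 1 or 2 genes above 1 CPM. Whether either shift bears on the members was not tested.

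Whether editing acts differently in macrophages than in progenitors was tested as an interaction. It called 2 of 6 members, where 13.6% of all tested genes were called. For Adar the effect was larger in macrophages by 1.03 ± 0.29 (adjusted p = 0.0355), a call that was lost in 10 of the 11 fits that leave out 1 library. For Trex1 it was larger by 1.64 ± 0.32 (adjusted p = 0.0058). Samhd1 gave 0.65 ± 0.24 (adjusted p = 0.101) and was called without sgRNA 1 macrophage replicate 3 (0.80, adjusted p = 0.0392). Rnaseh2c gave 1.28 ± 0.61 (adjusted p = 0.191) and was called without NTC macrophage replicate 3 (2.41, adjusted p = 5.47e-05), again with 1 NTC macrophage library assumed to vary like the other groups.

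Differentiation from dividing progenitor to macrophage changes most of the transcriptome. In NTC cells 6 of 6 members were called between macrophages and progenitors, 3 higher and 3 lower in macrophages, where 71.5% of all tested genes were called. Adar rose by 1.73 ± 0.21 (adjusted p = 1.95e-05), Trex1 by 2.30 ± 0.24 (adjusted p = 4.62e-06) and Samhd1 by 1.96 ± 0.18 (adjusted p = 1.62e-06). Rnaseh2a fell by 1.41 ± 0.11 (adjusted p = 5.07e-07), Rnaseh2b by 1.63 ± 0.17 (adjusted p = 4.51e-06) and Rnaseh2c by 1.77 ± 0.46 (adjusted p = 0.00439). By the study's rule 1 member, Trex1, was called, where 23.5% of genes were. Progenitor markers fall with the same step, from 119 to 129 CPM summed over 4 genes in NTC progenitors to 1.61 and 1.45 in NTC macrophages, with Kit and Myb at the lowest value, so the step includes a change of cell kind. Erythroid markers (4 genes, Hbb-bs on top in progenitors) go from 758, 595 and 476 CPM to none above 1 CPM, neutrophil markers (Mpo on top in progenitors) from 25200, 19200 and 16900 to 15.5 and 10.8, and neuron markers (5 genes) from 10.1, 18.4 and 6.46 to none above 1 CPM.

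The same step in edited cells shares no library with the NTC step. With sgRNA 1, 5 of 6 members were called, where 71.1% of all tested genes were. Adar rose by 2.76 ± 0.19, Trex1 by 3.94 ± 0.21 and Samhd1 by 2.60 ± 0.16, while Rnaseh2a fell by 1.20 ± 0.10 and Rnaseh2b by 1.28 ± 0.15. Rnaseh2c differed by -0.49 ± 0.41 (adjusted p = 0.296). With sgRNA 2, whose cells have no control in their own set, 6 of 6 members were called, where 81.1% of all tested genes were. Adar rose by 2.59 ± 0.06, Trex1 by 3.77 ± 0.08 and Samhd1 by 2.47 ± 0.05, while Rnaseh2a fell by 0.95 ± 0.08, Rnaseh2b by 1.05 ± 0.12 and Rnaseh2c by 1.29 ± 0.12.

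The baricitinib series repeats the knockout in macrophages and adds the inhibitor. Without baricitinib Adar was at 5.12, 4.94 and 4.69 log2 CPM in NTC macrophages and at 7.42, 6.52 and 6.37 in Adar1 KO macrophages. At 0.0006 uM it was at 4.66, 5.04 and 4.81 in NTC and 5.90, 5.94 and 6.21 in KO, and at 0.016 uM at 4.31, 4.58, 4.40 and 4.34 in NTC and 6.25, 5.90 and 6.37 in KO. Up to this dose every KO library lies above every NTC library. At 0.4 uM Adar was at 4.50, 4.22, 4.29 and 3.92 in NTC and 4.12, 7.38 and 4.21 in KO, where replicate 2 alone keeps the high level. At 10 uM it was at 3.70, 3.64 and 3.22 in NTC and 1.55, 2.15, 2.91 and 2.03 in KO, so the order is turned and every KO library lies below every NTC library. From highest to lowest, the group means are KO at 0, 0.016, 0.0006 and 0.4 uM, NTC in order of rising dose, and KO at 10 uM. In that order the neighbours from KO at 0 uM down to NTC at 0.0006 uM do not differ beyond their spread, and neither do NTC at 0.016 and 0.4 uM.

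**Figure D2:**
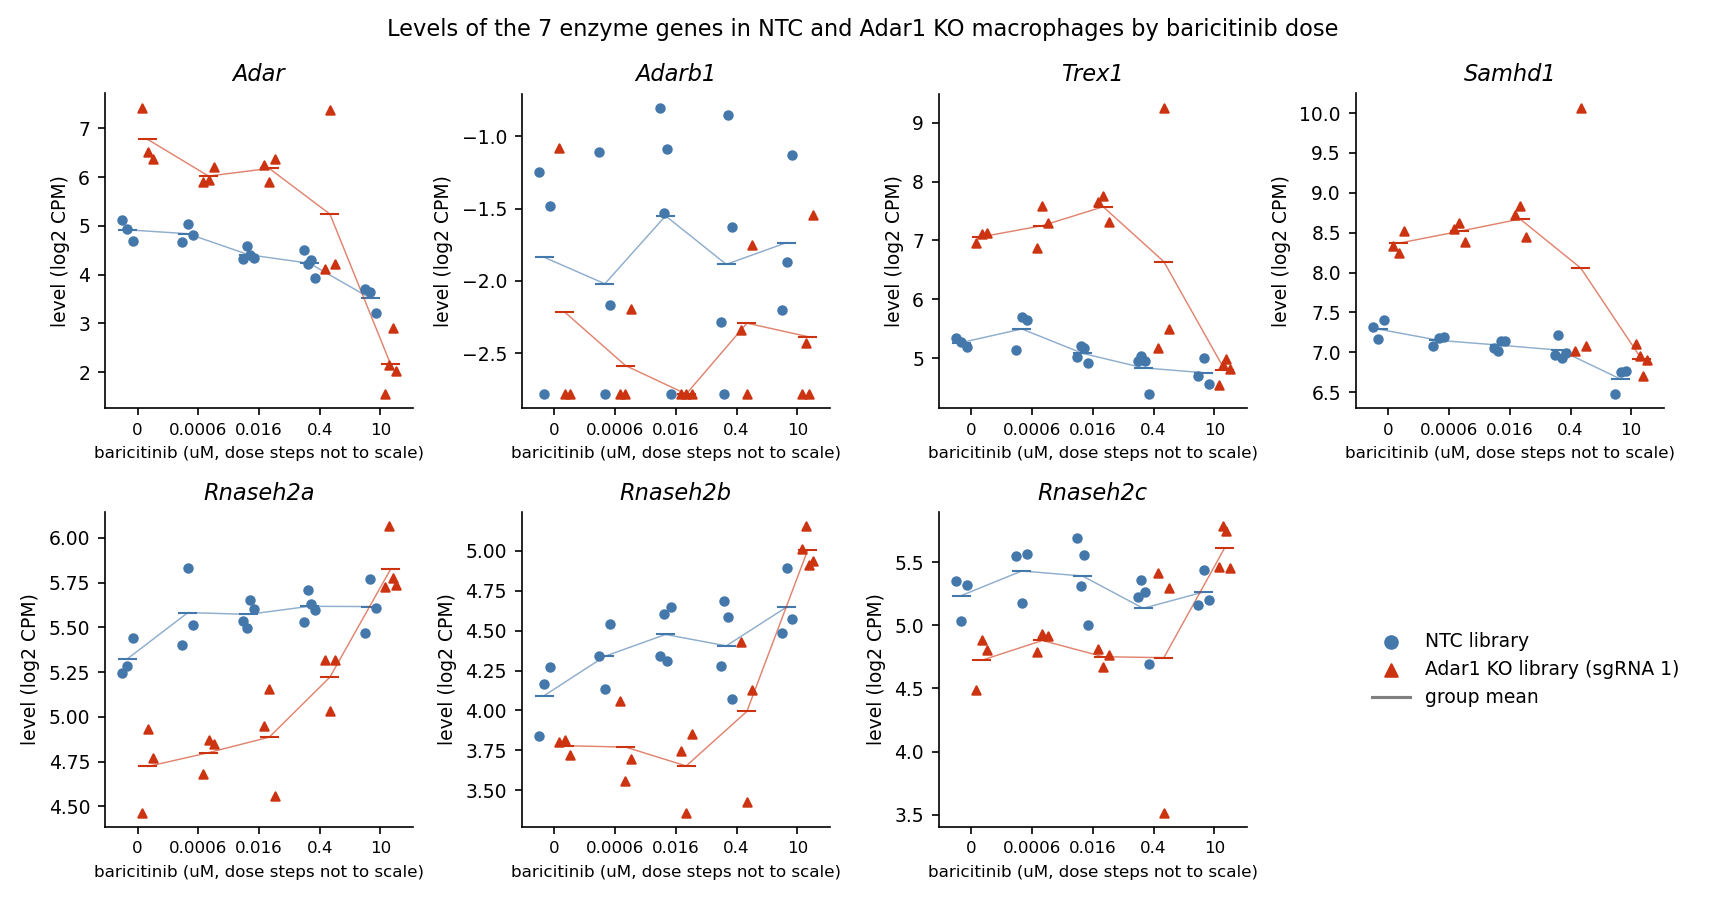
Level (log2 CPM) of each of the 7 members against baricitinib dose, in steps not drawn to scale, with circles for NTC and triangles for Adar1 KO libraries and lines through group means. Adar in KO macrophages goes from 7.42, 6.52 and 6.37 at 0 uM to 1.55, 2.15, 2.91 and 2.03 at 10 uM.

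Trex1 without baricitinib was at 5.34, 5.27 and 5.19 in NTC and 6.96, 7.10 and 7.13 in KO macrophages. At 0.0006 uM NTC gave 5.15, 5.71 and 5.64 and KO gave 6.88, 7.59 and 7.29, and at 0.016 uM NTC gave 5.03, 5.21, 5.18 and 4.93 and KO gave 7.65, 7.75 and 7.31. NTC and KO libraries do not overlap at these doses. At 0.4 uM Trex1 was at 4.96, 5.04, 4.96 and 4.40 in NTC and at 5.17, 9.25 and 5.50 in KO, still without overlap, but replicates 1 and 3 of the KO lie close to NTC. At 10 uM the levels were 4.70, 5.00 and 4.57 in NTC and 4.54, 4.89, 4.99 and 4.82 in KO, which overlap.

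Samhd1 without baricitinib was at 7.31, 7.16 and 7.40 in NTC and 8.34, 8.25 and 8.52 in KO macrophages. The levels at 0.0006 uM were 7.08, 7.19 and 7.19 in NTC and 8.54, 8.63 and 8.38 in KO, and at 0.016 uM 7.06, 7.02, 7.14 and 7.15 in NTC and 8.72, 8.84 and 8.45 in KO. Again no library overlaps. At 0.4 uM NTC stood at 6.97, 7.21, 6.93 and 6.99 and KO at 7.02, 10.07 and 7.08, and at 10 uM NTC at 6.48, 6.75 and 6.76 and KO at 7.10, 6.95, 6.71 and 6.90, with overlap at both doses. For Trex1 and for Samhd1 the highest group mean is that of KO at 0.016 uM and the lowest that of NTC at 10 uM, and the KO groups at 0, 0.0006 and 0.016 uM stand above all NTC groups.

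Rnaseh2a runs the other way. Without baricitinib it was at 5.24, 5.29 and 5.44 in NTC and 4.47, 4.93 and 4.77 in KO macrophages. At 0.0006 uM it was at 5.40, 5.83 and 5.51 in NTC and 4.68, 4.87 and 4.85 in KO, and at 0.016 uM at 5.54, 5.50, 5.65 and 5.60 in NTC and 4.95, 5.16 and 4.56 in KO. At 0.4 uM NTC gave 5.53, 5.71, 5.63 and 5.60 and KO 5.32, 5.03 and 5.32, and at 10 uM NTC gave 5.47, 5.77 and 5.61 and KO 5.73, 6.06, 5.77 and 5.74. KO lies below NTC without overlap up to 0.4 uM, and the groups overlap at 10 uM.

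Rnaseh2b without baricitinib was at 3.84, 4.17 and 4.27 in NTC and 3.80, 3.82 and 3.72 in KO macrophages. It was at 4.34, 4.14 and 4.54 in NTC and 4.06, 3.56 and 3.70 in KO at 0.0006 uM, and at 0.016 uM at 4.34, 4.60, 4.31 and 4.65 in NTC and 3.75, 3.36 and 3.85 in KO. KO lies below NTC without overlap at these doses. At 0.4 uM NTC gave 4.28, 4.68, 4.58 and 4.07 and KO 4.43, 3.43 and 4.13, which overlap, and at 10 uM NTC gave 4.49, 4.89 and 4.57 and KO 5.01, 5.15, 4.91 and 4.94, where KO lies above.

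Rnaseh2c, the gene of the remaining subunit, without baricitinib was at 5.35, 5.03 and 5.32 in NTC and 4.49, 4.88 and 4.80 in KO macrophages. The values at 0.0006 uM were 5.55, 5.18 and 5.57 in NTC and 4.79, 4.94 and 4.92 in KO, and at 0.016 uM 5.69, 5.32, 5.56 and 5.00 in NTC and 4.82, 4.67 and 4.77 in KO, with KO below NTC throughout. At 0.4 uM it was at 5.23, 5.36, 5.26 and 4.69 in NTC and 5.42, 3.52 and 5.30 in KO, with replicate 2 alone low, and at 10 uM at 5.16, 5.44 and 5.20 in NTC and 5.46, 5.78, 5.75 and 5.45 in KO. For Rnaseh2a, Rnaseh2b and Rnaseh2c alike the highest of the 10 group means is KO at 10 uM. Adarb1 was between the lowest value of -2.78 and -0.80 in all 33 libraries and was not tested.

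The 0 uM groups compare KO with NTC macrophages in the absence of the inhibitor. In KO against NTC macrophages at 0 uM 4 of 6 members were called, 3 higher and 1 lower, where 24.9% of all tested genes were called. Adar rose by 1.85 ± 0.48 (adjusted p = 0.00513). Trex1 rose by 1.79 ± 0.53 (adjusted p = 0.0135). Samhd1 rose by 1.08 ± 0.40 (adjusted p = 0.0491), a call lost in every fit that leaves out 1 of the 6 libraries compared, with values of 1.00 or more and adjusted p from 0.0786 to 0.124. Rnaseh2a fell by 0.60 ± 0.14 (adjusted p = 0.0023). Rnaseh2b differed by -0.31 ± 0.20 (adjusted p = 0.278) and Rnaseh2c by -0.51 ± 0.29 (adjusted p = 0.205). Without KO replicate 2 at 0.4 uM, which enters only through the shared spread, 5 members were called, where 30.5% of genes were, with Samhd1 at adjusted p = 7.51e-09 and Rnaseh2c at 0.0202. By the study's rule 0 members were called, where 3.88% of genes were.

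How much kinase activity remains at the lower doses is not known from these data. Comparisons at these doses ask how much inhibitor it takes to alter what the knockout does. At 0.0006 uM 4 of 6 members were called between KO and NTC, where 28.6% of all tested genes were. Trex1 rose by 1.75 ± 0.53 (adjusted p = 0.0137), Samhd1 rose by 1.37 ± 0.40 (adjusted p = 0.011), Rnaseh2a fell by 0.78 ± 0.14 (adjusted p = 0.00011) and Rnaseh2b fell by 0.57 ± 0.20 (adjusted p = 0.0356). Rnaseh2b was not called without NTC replicate 1 or 3 or KO replicate 2 or 3 of this dose (for NTC replicate 3, -0.47 and adjusted p = 0.142), and Trex1 not without NTC replicate 1 (1.58, adjusted p = 0.0553) or KO replicate 2 (1.58, adjusted p = 0.0559). Adar differed by 1.18 ± 0.48 (adjusted p = 0.0653) and was called at 0.000432 without KO replicate 2 at 0.4 uM, when 6 of 6 members and 33.3% of genes were.

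At 0.016 uM 5 of 6 members were called between KO and NTC, where 31.8% of all tested genes were. Adar rose by 1.77 ± 0.45 (adjusted p = 0.00305), Trex1 by 2.49 ± 0.50 (adjusted p = 0.000297) and Samhd1 by 1.58 ± 0.37 (adjusted p = 0.00168). Rnaseh2a fell by 0.69 ± 0.13 (adjusted p = 0.000191) and Rnaseh2b by 0.82 ± 0.19 (adjusted p = 0.00129). Rnaseh2c differed by -0.64 ± 0.27 (adjusted p = 0.0716) and was called without NTC replicate 4 of this dose (-0.77, adjusted p = 0.0425) or without KO replicate 2 at 0.4 uM (adjusted p = 0.00175).

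At 0.4 uM the KO group holds the library that stands apart. With it 2 of 6 members were called between KO and NTC, where 13.3% of all tested genes were. Trex1 rose by 1.80 ± 0.50 (adjusted p = 0.0165) and Rnaseh2a fell by 0.40 ± 0.13 (adjusted p = 0.046). Adar differed by 1.01 ± 0.45 (adjusted p = 0.137) and Samhd1 by 1.03 ± 0.37 (adjusted p = 0.0667). Without KO replicate 2, limma called 0 members and 6.5% of genes, and Adar gave -0.06, Trex1 0.50 (adjusted p = 0.126), Samhd1 0.02 and Rnaseh2a -0.30 (adjusted p = 0.244). The Trex1 call and its size at this dose therefore rest on replicate 2, while the other KO libraries (5.17 and 5.50) still lie above every NTC library (highest 5.04). Without KO replicate 1 instead, Adar was called at 1.56 (adjusted p = 0.0178), Samhd1 at 1.55 (adjusted p = 0.00487) and Rnaseh2b at -0.63 (adjusted p = 0.0273), and without replicate 3 Adar was called at 1.52 (adjusted p = 0.0265) and Samhd1 at 1.52 (adjusted p = 0.00759). Rnaseh2a was not called without any of the NTC libraries of this dose (adjusted p from 0.0611 to 0.104). Fitting only the groups compared, limma called 0 members and 2.18% of genes.

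At 10 uM the inhibitor is at its highest dose and the KO libraries no longer carry high interferon-stimulated genes. Here 1 of 6 members was called between KO and NTC, where 44.5% of all tested genes were. Adar was lower in KO by 1.36 ± 0.45 (adjusted p = 0.0148), the reverse of its direction at 0 uM. That call was lost without NTC replicate 1 (-1.27, adjusted p = 0.0528) or KO replicate 1 (-1.16, adjusted p = 0.0533) of this dose, and stood at adjusted p = 2.12e-05 without KO replicate 2 at 0.4 uM. Trex1 differed by 0.05 ± 0.50 (adjusted p = 0.949). Samhd1 differed by 0.25 ± 0.37 (adjusted p = 0.619) and was called without KO replicate 2 at 0.4 uM (0.25, adjusted p = 0.0383). Rnaseh2a differed by 0.21 ± 0.13, Rnaseh2b by 0.35 ± 0.19 and Rnaseh2c by 0.35 ± 0.27, none of them called.

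**Figure D3:**
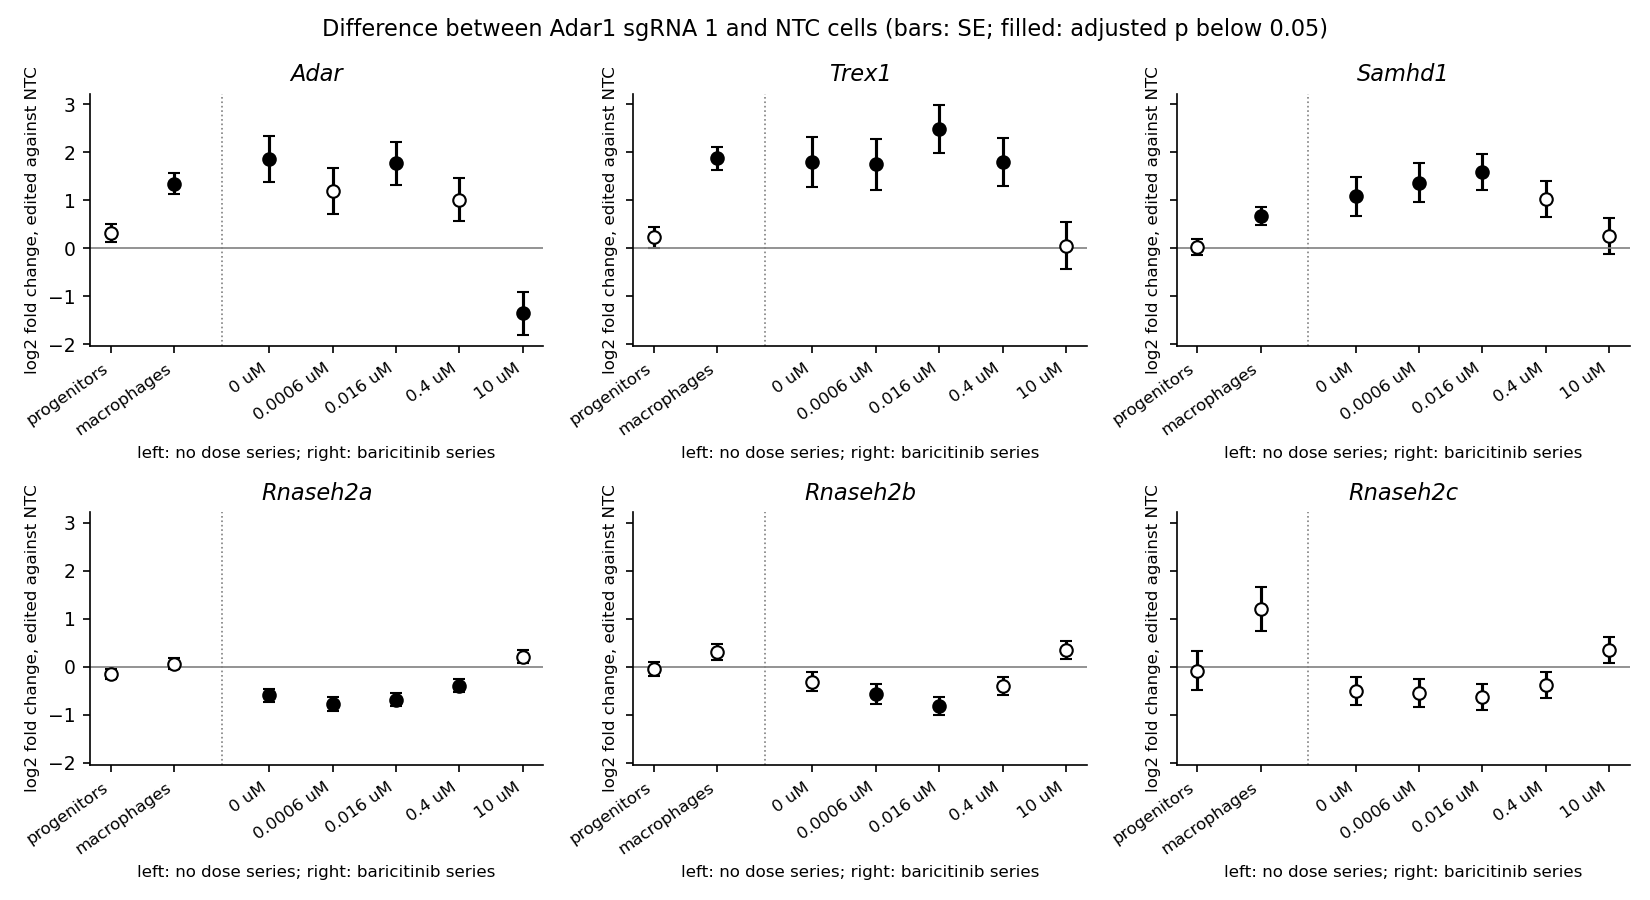
Log2 fold change of edited over NTC cells for 6 members in progenitors and macrophages with sgRNA 1 and at the 5 baricitinib doses, with bars of ± 1 SE and filled points for adjusted p below 0.05. Adar goes from 1.85 at 0 uM to -1.36 at 10 uM.

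Within KO cells, the highest dose against none asks what baricitinib does where interferon-stimulated genes are high. It called 6 of 6 members, 3 higher and 3 lower, where 65.0% of all tested genes were called. Adar fell by 4.61 ± 0.45 (adjusted p = 8.64e-10). Trex1 fell by 2.25 ± 0.50 (adjusted p = 0.000264). Samhd1 fell by 1.45 ± 0.37 (adjusted p = 0.00132). Rnaseh2a rose by 1.10 ± 0.13 (adjusted p = 3.64e-08). Rnaseh2b rose by 1.22 ± 0.19 (adjusted p = 2.49e-06). Rnaseh2c rose by 0.89 ± 0.27 (adjusted p = 0.00522). By the study's rule 2 members, Adar and Trex1, were called, where 14.5% of genes were. Macrophage markers move with this step, from 6280, 6610 and 6930 CPM summed over 6 of 6 genes above 1 CPM at 0 uM to 4210, 3690, 3520 and 3740 at 10 uM with Cd68 on top. The summed progenitor list goes from 1.54, 2.04 and 3.33 to 10.8, 12.7, 12.5 and 14.3 CPM, of which Cd34 is the only gene of 4 above 1 CPM at 10 uM and Kit is at the lowest value. Whether these shifts account for the members' levels was not tested.

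In NTC macrophages the same dose meets a low level of interferon-stimulated genes. Here limma called 0 of 6 members, where 13.6% of all tested genes were called, and 3 (Adar, Rnaseh2a and Rnaseh2b) had unadjusted p below 0.05. Adar differed by -1.40 ± 0.48 (adjusted p = 0.0508), Trex1 by -0.51 ± 0.53 and Samhd1 by -0.63 ± 0.40. Without KO replicate 2 at 0.4 uM 4 members were called, where 20.5% of genes were, Adar at adjusted p = 0.000194, Trex1 at 0.0419, Samhd1 at 0.00014 and Rnaseh2b at 0.0209. The same 4 members were called with only the groups compared in the fit, where 22.6% of genes were. Adar alone was called with quantile normalization (15% of genes) and with library numbers in runs of 5 as a block (14.2%). The 0 uM and 10 uM libraries of each genotype enter the next test.

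That test asks whether the effect of the knockout changes from 0 to 10 uM. It called 2 of 6 members, where 38.8% of all tested genes were called. For Adar the effect changed by -3.21 ± 0.66 (adjusted p = 0.000373). For Rnaseh2a it changed by 0.81 ± 0.19 (adjusted p = 0.00162). Trex1 gave -1.74 ± 0.73 (adjusted p = 0.0588), Samhd1 -0.82 ± 0.55 (adjusted p = 0.244), Rnaseh2b 0.67 ± 0.28 (adjusted p = 0.0578) and Rnaseh2c 0.86 ± 0.39 (adjusted p = 0.0864). Without KO replicate 2 at 0.4 uM 6 of 6 were called, where 43.9% of genes were, Trex1 at adjusted p = 1.96e-06, Samhd1 at 6.01e-05, Rnaseh2b at 0.0222 and Rnaseh2c at 0.00326. Rnaseh2b was also called without NTC replicate 1 at 0 uM (0.79, adjusted p = 0.0351) or NTC replicate 2 at 10 uM (0.79, adjusted p = 0.0385). By the study's rule 1 member, Adar, was called, where 7.05% of genes were.

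The lower doses were also compared with 0 uM within each genotype, and these comparisons share their 0 uM libraries. In KO cells limma called 0 of 6 members at 0.0006 uM, where 2.31% of all tested genes were called, and 0 had unadjusted p below 0.05. At 0.016 uM it called 0 of 6, where 5.98% of all tested genes were called, again with 0 at unadjusted p below 0.05. At 0.4 uM 2 of 6 were called, where 26.0% of all tested genes were, with Adar lower by 1.53 ± 0.48 (adjusted p = 0.019) and Rnaseh2a higher by 0.50 ± 0.14 (adjusted p = 0.00977). Adar there was not called without KO replicate 1 at 0 uM (-1.21, adjusted p = 0.124) or without replicate 1 (-0.97, adjusted p = 0.16) or 3 (-1.02, adjusted p = 0.155) at 0.4 uM, and Rnaseh2a not without KO replicate 1 at 0 uM (0.37, adjusted p = 0.0944). Both calls were lost with only the groups compared in the fit, where limma called 0 members and 3.64% of genes. Without KO replicate 2 at 0.4 uM 6 of 6 were called, where 32.4% of genes were, with Adar at -2.60, Trex1 at -1.73, Samhd1 at -1.32, Rnaseh2a at 0.59, Rnaseh2b at 0.50 and Rnaseh2c at 0.63.

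In NTC cells limma called 0 of 6 members at 0.0006 uM, where 0% of all tested genes were called, and 0 had unadjusted p below 0.05. At 0.016 uM it called 0 of 6, where 0% of all tested genes were called, with 0 at unadjusted p below 0.05. At 0.4 uM it called 0 of 6, where 0.00882% of all tested genes were called, with 1, Rnaseh2a, at unadjusted p below 0.05. Adar was lower at 0.016 and 0.4 uM than at 0 uM in every library, with differences of -0.51 and -0.69 that were not called.

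Interferon-stimulated genes and replication genes, lists chosen with earlier results of these data known, give a setting for these levels. With sgRNA 1 in macrophages 14 of 14 interferon-stimulated genes were called higher, with a median of 5.45 against 0.05 over all tested genes, the largest being Rsad2 (7.04), Ifit3 (6.22) and Cmpk2 (6.11). Of 15 replication genes 13 were called higher, with Rrm2 (3.44), Mcm6 (3.19) and Top2a (2.48) first. In the KO at 0 uM 14 of 14 interferon-stimulated genes were again called higher, with a median of 5.45 against -0.03, led by Ifit3 (7.53), Ifit1 (7.18) and Rsad2 (7.02). There 13 of 15 replication genes were called lower, with a median of -1.66 and Mcm6 (-2.72), Tk1 (-2.35) and Rrm2 (-2.33) first. Edited macrophages thus share the direction of the interferon-stimulated genes in both experiments but not that of the replication genes. Rnaseh2a was called lower in KO at 0 uM (-0.60) and was not called with sgRNA 1 (0.06). The experiments are in different sets and their difference was not tested.

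From 0 to 10 uM in KO cells 14 of 14 interferon-stimulated genes fell, with a median of -7.16 against 0.05, led by Ifit3 (-9.71), Oasl2 (-9.59) and Irf7 (-9.47). Of the replication genes 12 of 15 rose, with a median of 2.54 and Mki67 (4.70), Top2a (4.06) and Dut (3.67) first. In the test of the change of the knockout effect, 14 interferon-stimulated genes were called lower (median -5.13) and 11 replication genes higher (median 1.58), against 0.07 over all tested genes. Library means of the interferon-stimulated genes were 7.89, 7.83 and 7.88 in KO at 0 uM and 0.64, 0.83, 0.74 and 0.85 in KO at 10 uM, against 0.52, 0.82 and 0.70 in NTC at 10 uM. Adar at 10 uM is thus below NTC in KO libraries whose mean of interferon-stimulated genes overlaps with NTC, and KO against NTC at 10 uM called 0 of these 14 genes (median 0.08 against 0.00).

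**Figure D4:**
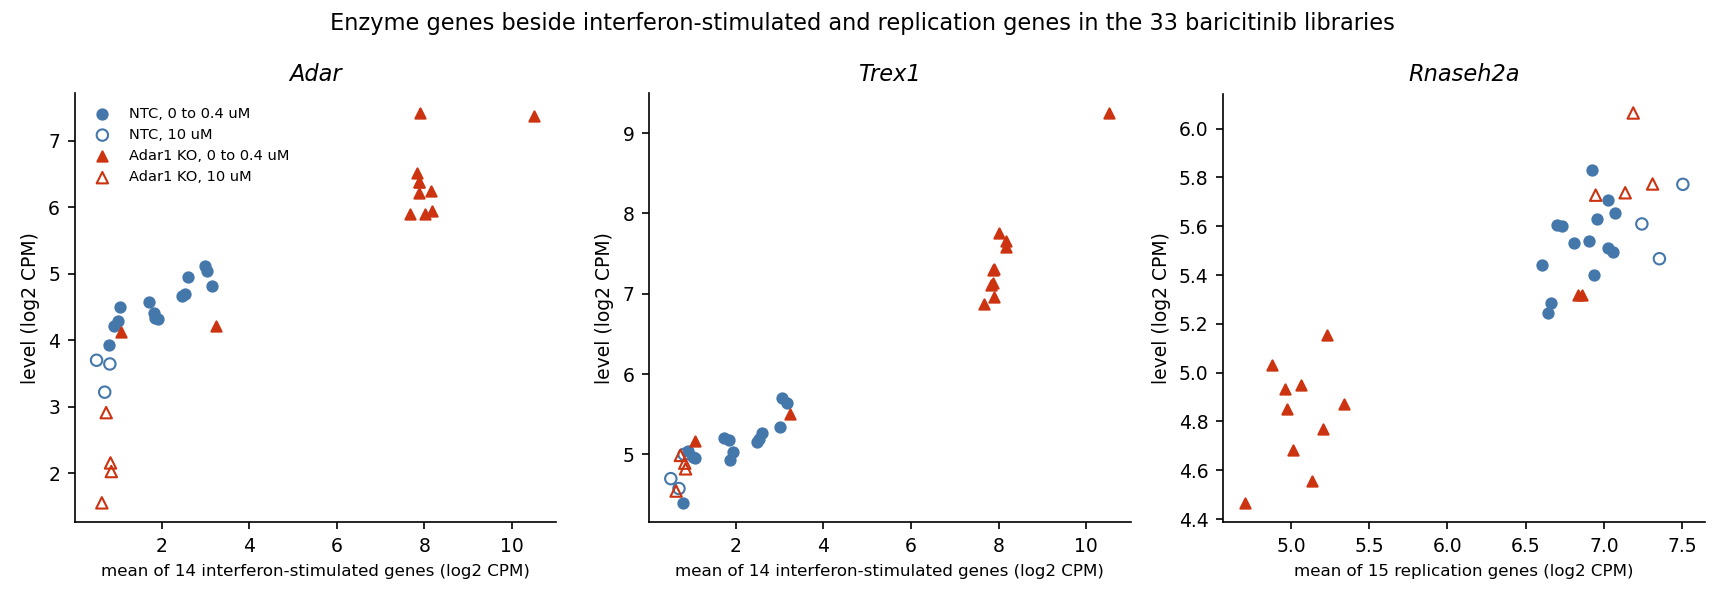
Levels (log2 CPM) of Adar and Trex1 against the mean of 14 interferon-stimulated genes, and of Rnaseh2a against the mean of 15 replication genes, 1 point per library of the 33 in the baricitinib series, with open symbols for 10 uM. The KO libraries at 10 uM have Adar at 1.55, 2.15, 2.91 and 2.03 with interferon-stimulated means of 0.64, 0.83, 0.74 and 0.85.

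Further lists hold other genes of the same disease and other enzymes of the same kinds. Of the other disease genes, Ifih1, which encodes MDA5, and Lsm11 were tested. Ifih1 rose by 2.63 ± 0.23 with sgRNA 1 in macrophages (adjusted p = 1.11e-05, list median 1.18) and by 2.32 ± 0.72 in KO at 0 uM (adjusted p = 0.0179, list median 0.90), and fell by 3.19 ± 0.67 from 0 to 10 uM in KO (adjusted p = 0.000158, list median -1.37). Of 4 other deaminases tested, 1, Adat3 (1.29), was called higher with sgRNA 1 in macrophages (list median -0.09) and 0 in KO at 0 uM (median -0.24). Of 8 other nucleases tested, 1 was called higher (Pnpt1, 1.71) and 2 lower (Dnase1, -1.20, and Dnase1l1, -0.84) with sgRNA 1, with a median of -0.03. In KO at 0 uM 2 were called higher (Xrn1, 0.55, and Dnase2a, 0.30) and 1 lower (Dnase1l1, -0.52), with a median of 0.31. From 0 to 10 uM in KO 5 of 8 other nucleases were called, 2 higher and 3 lower (median -0.46), where 65.0% of all tested genes were. Of 4 other deaminases, 2 were called higher there. Among the nucleases, Dnase2a fell by 2.33 ± 0.11 (adjusted p = 1.01e-15). The medians of the 6 members themselves were 0.93 with sgRNA 1 and 0.38 in KO at 0 uM.

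Over the 33 baricitinib libraries, which share genotype and dose groups so that r describes those groups as much as single libraries, each member was compared with 11338 other tested genes by Pearson correlation. Adar was closest to Ogfr (0.98), Znfx1 (0.97) and Helz2 (0.97). Trex1 was closest to Phf11b, Ube2l6 and Fcgr1 (each 0.99), and Samhd1 to Rnf34 (0.99), Ube2l6 (0.98) and Phf11b (0.98). Rnaseh2a was closest to Pmf1, 2700099C18Rik and Mastl (each 0.95), Rnaseh2b to Ddias, Cenpa and Ccnb2 (each 0.94), and Rnaseh2c to Ndc1 (0.89), Hist1h4d (0.87) and Trim37 (0.87). Between members r was 0.97 for Trex1 and Samhd1, 0.85 for Adar and Trex1, -0.85 for Adar and Rnaseh2a, and -0.89 for Adar and Rnaseh2b.

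Because Adar, Trex1 and Samhd1 move together in these cells, their promoters were read for interferon motifs. The promoter windows are 300 bases of mouse build GRCm38.p6, credited to RefSeq, and both strands were searched for ISRE (GAAANNGAA), GAS (TTCNNNGAA, its own reverse complement) and E2F (TTTGGCGC, TTTCCCGC or TTTCGCGC) letters. Of all 32851 such windows, 8.56% hold ISRE, 8.3% GAS and 1.84% E2F. Adar has 3 windows, of which those at chr3:89714772-89715071 and chr3:89714988-89715287 hold no match. Its downstream window, chr3:89730468-89730767 on the + strand, holds 2 ISRE and 1 GAS matches, contains the starts of 4 of its 9 transcripts and lies inside other Adar transcripts. The window of Samhd1, chr2:157135047-157135346 on the - strand, holds 1 GAS match, as does that of Rnaseh2a, chr8:84966027-84966326 on the - strand. The windows of Trex1 (chr9:109059674-109059973 and chr9:109059202-109059501), Adarb1 (chr10:77418224-77418523) and Rnaseh2c (chr19:5601623-5601922) hold no match, Rnaseh2b has no window in the table, and no member window holds E2F. The sequences of Adar and Samhd1 are printed 5' to 3' on the strand of the gene because they hold the matches among the members that move together, with matches in capitals. A match is a description of letters and does not show binding.
Adar downstream window: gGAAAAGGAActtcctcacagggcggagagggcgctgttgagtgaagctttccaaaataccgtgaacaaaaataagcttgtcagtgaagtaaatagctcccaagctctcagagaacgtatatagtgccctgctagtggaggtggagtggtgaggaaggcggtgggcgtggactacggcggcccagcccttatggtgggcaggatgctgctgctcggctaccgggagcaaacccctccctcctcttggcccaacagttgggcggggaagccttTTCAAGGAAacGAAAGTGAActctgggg
Samhd1 window: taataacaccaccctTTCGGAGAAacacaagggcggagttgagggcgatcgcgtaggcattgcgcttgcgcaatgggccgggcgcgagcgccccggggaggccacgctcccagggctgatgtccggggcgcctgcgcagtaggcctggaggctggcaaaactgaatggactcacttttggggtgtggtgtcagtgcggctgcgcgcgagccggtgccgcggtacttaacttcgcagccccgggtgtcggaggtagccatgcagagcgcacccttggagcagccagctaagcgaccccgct

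In the brain set the members were read in cells that took the place of microglia. Adar was at 5.72, 5.56 and 6.29 in BMD macrophages and 5.83, 5.97 and 4.37 in ER-Hoxb8 macrophages. It ranged from 3.24 to 5.74 in BMD MLCs (median 4.73), from 4.11 to 6.08 in ER-Hoxb8 MLCs (median 5.19) and from 0.87 to 5.63 in microglia (median 3.43). The lowest and highest microglia values are those of replicates 8 and 9, the libraries named YSWT, and MLC and microglia libraries overlap. By group mean the order is BMD macrophages, ER-Hoxb8 macrophages, ER-Hoxb8 MLCs, BMD MLCs and microglia, with no neighbours apart beyond their spread.

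Adarb1 was highest in microglia, from -2.43 in replicate 8 to 1.95 (median 0.96). It was at 0.38, 0.19 and -0.94 in BMD macrophages and -2.95, -1.18 and -1.42 in ER-Hoxb8 macrophages, and ranged from -2.53 to -0.06 in BMD MLCs (median -1.25) and from the lowest value of -3.62 to -0.57 in ER-Hoxb8 MLCs (median -2.45). Apart from replicate 8, every microglia library lies above every MLC library. Trex1 was at 4.41, 3.75 and 4.43 in BMD and 5.06, 4.72 and 2.71 in ER-Hoxb8 macrophages, and ranged from 5.76 to 6.41 in BMD MLCs (median 6.12), 6.08 to 8.51 in ER-Hoxb8 MLCs (median 7.40) and 4.92 to 6.15 in microglia (median 5.42). Samhd1 was at 7.33, 7.57 and 6.60 in BMD and 7.73, 8.08 and 8.22 in ER-Hoxb8 macrophages, and ranged from 7.41 to 8.44 in BMD MLCs (median 8.00), 8.97 to 11.25 in ER-Hoxb8 MLCs (median 9.29) and 5.89 to 7.07 in microglia (median 6.24). Samhd1 separates the 3 brain groups without overlap, with ER-Hoxb8 MLCs highest and microglia lowest. The highest value, 11.25, is that of ER-Hoxb8 MLC replicate 6, the library with only 832 CPM of microglia markers. The others of that group reach 9.59.

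Rnaseh2a was at 5.62, 4.95 and 5.67 in BMD and 5.61, 5.48 and 5.52 in ER-Hoxb8 macrophages, with medians of 4.28 in BMD MLCs (3.77 to 4.60), 4.68 in ER-Hoxb8 MLCs (3.57 to 4.87) and 4.05 in microglia (2.44 to 4.76). Every library from brain lies below every cultured macrophage library. Rnaseh2b was at 5.29, 4.91 and 5.02 in BMD and 5.28, 4.69 and 4.40 in ER-Hoxb8 macrophages, with medians of 4.17 in BMD MLCs (3.98 to 4.59), 4.86 in ER-Hoxb8 MLCs (3.14 to 5.59) and 3.82 in microglia (3.44 to 4.68). Rnaseh2c was at 1.77, 3.89 and 5.04 in BMD and 4.45, 3.85 and 2.08 in ER-Hoxb8 macrophages, with medians of 4.81 in BMD MLCs (3.79 to 5.57), 4.76 in ER-Hoxb8 MLCs (3.78 to 5.76) and 4.23 in microglia (3.77 to 5.08), which overlap throughout.

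**Figure D5:**
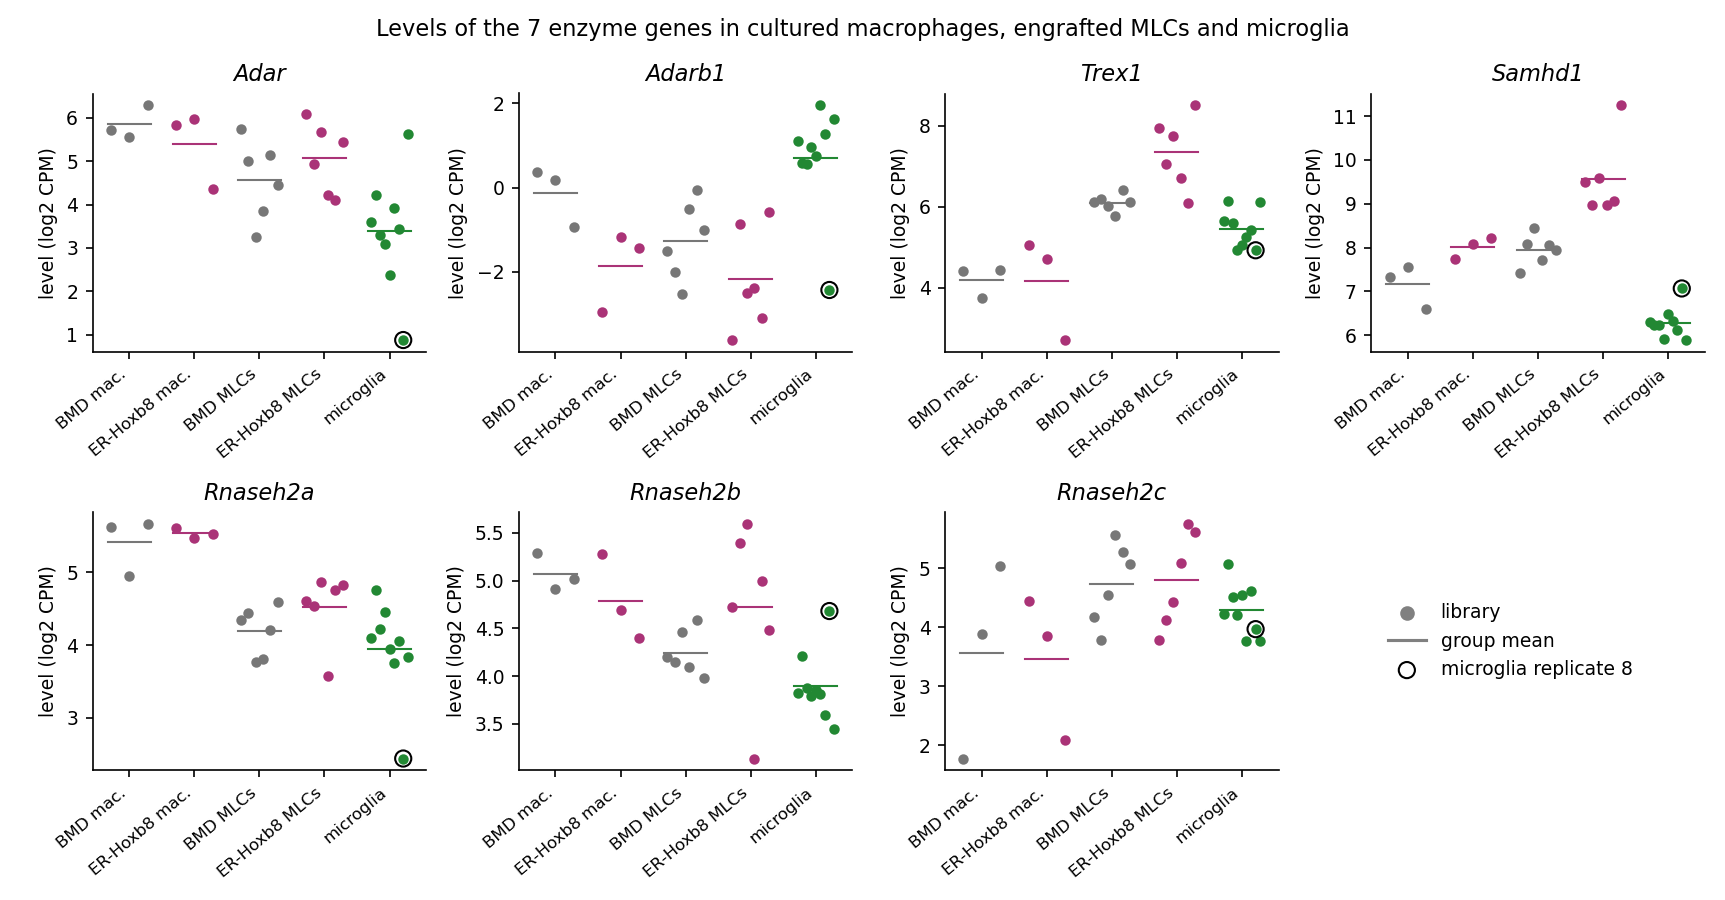
Level (log2 CPM) of each of the 7 members in BMD and ER-Hoxb8 macrophages, BMD and ER-Hoxb8 MLCs and microglia, with points for libraries, bars for group means and a ring around microglia replicate 8. Samhd1 runs from 8.97 to 11.25 in ER-Hoxb8 MLCs and from 5.89 to 7.07 in microglia.

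Markers of microglia, macrophages and other cells differ between the brain groups. Microglia markers (5 genes) sum to 44200 to 73300 CPM in microglia, 5010 to 17000 in BMD MLCs and 832 to 9700 in ER-Hoxb8 MLCs. Macrophage markers (6 genes) sum to 2700 to 3010 CPM in ER-Hoxb8 MLC replicates 4 to 6, against 4890 to 7740 in replicates 1 to 3. Neutrophil markers, 7 of 7 above 1 CPM in every BMD MLC library, sum to 7320, 4430, 28600, 33000, 33000 and 31200 CPM in BMD MLCs with Ngp on top, and to 765, 238, 331, 17900, 41200 and 3340 in ER-Hoxb8 MLCs, against 407 to 5890 in microglia. Border macrophage markers (4 genes, Mrc1 on top) sum to 1490 to 2250 CPM in BMD MLCs, 2.54 to 1000 in ER-Hoxb8 MLCs and 9.93 to 101 in microglia. Cultured BMD macrophages (317, 250 and 217) and ER-Hoxb8 macrophages (691, 467 and 53.0) carry Mrc1 as well, with Lyve1 at the lowest value in each. Whether these differences bear on the members' levels was not tested.

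Grafted ER-Hoxb8 cells come to lie in brain but were grown from a line, so comparison with microglia joins origin and setting. Against microglia, 5 of 7 members were called in ER-Hoxb8 MLCs, 4 higher and 1 lower, where 33.8% of all tested genes were called. Adar was higher by 1.70 ± 0.51 (adjusted p = 0.0109), though not with the WTHox libraries alone (1.22, adjusted p = 0.161), and Trex1 by 1.88 ± 0.34 (adjusted p = 7.51e-05). Samhd1 was higher by 3.27 ± 0.27 (adjusted p = 2.6e-10), and by 2.93 without MLC replicate 6. Adarb1 was the member called lower, but it passed the filter through microglia and BMD macrophages, with no MLC library above 1 CPM. The filter itself thus favours a difference, and the Adarb1 call is no support. Rnaseh2b was higher by 0.83 ± 0.28 (adjusted p = 0.0242), but not called without MLC replicate 2 (0.69, adjusted p = 0.0721), 3 (0.65, adjusted p = 0.0834) or 5 (0.77, adjusted p = 0.0532), or with the WTHox libraries alone (0.31). Rnaseh2a differed by 0.58 (adjusted p = 0.112) and was called without MLC replicate 4 (0.77, adjusted p = 0.0302). By the study's rule 2 members, Samhd1 and Adarb1 (with the same limit), were called, where 16.3% of genes were. The 14 interferon-stimulated genes were all called higher here (median 5.54 against -0.10), led by Oasl2 (7.07), Irf7 (6.33) and Ifit2 (6.02).

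BMD MLCs show what primary donor cells do in the same hosts, and share the microglia with the last comparison. Against microglia, 2 of 7 members were called in BMD MLCs, where 20.4% of all tested genes were. Samhd1 was higher by 1.66 ± 0.27 (adjusted p = 4.62e-05). Adarb1 was the other, called lower, which for the same reason is no support, and it was not called without BMD MLC replicate 3 (-1.72, adjusted p = 0.0515). Adar differed by 1.19 ± 0.51 (adjusted p = 0.105) and was called without microglia replicate 9 (1.48, adjusted p = 0.0253) or without both YSWT libraries (1.16, adjusted p = 0.0413). Between the donors, ER-Hoxb8 against BMD MLCs called 2 of 7 members, where 15.1% of all tested genes were called. Trex1 was higher in ER-Hoxb8 MLCs by 1.24 ± 0.37 (adjusted p = 0.0229), but not called without BMD MLC replicate 4 (1.17, adjusted p = 0.0504) or ER-Hoxb8 MLC replicate 3 (1.16, adjusted p = 0.0519) or 6 (1.00, adjusted p = 0.0641), or with the WTHox libraries alone (0.99, adjusted p = 0.146). Samhd1 was higher by 1.62 ± 0.30 (adjusted p = 0.000448), and by 1.28 without ER-Hoxb8 MLC replicate 6. Rnaseh2b was called only without ER-Hoxb8 MLC replicate 4 (0.79, adjusted p = 0.0283).

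The brain cells were also compared with BMD or ER-Hoxb8 macrophages kept in culture, where the cultured ER-Hoxb8 cells are labelled as coming from the Cas9 mouse and the donors are not. In BMD MLCs against BMD macrophages 2 of 7 members were called, where 30.7% of all tested genes were. Trex1 was higher by 1.90 ± 0.45 (adjusted p = 0.00241). Samhd1, with means of 7.94 in BMD MLCs and 7.17 in BMD macrophages, was not called. It was among 4 members called with quantile normalization (30.1% of genes) and among 4 with only the groups compared (46.7%). Rnaseh2a was lower by 1.22 ± 0.37 (adjusted p = 0.0144), but not called without BMD macrophage replicate 1 (-1.12, adjusted p = 0.0694) or 3 (-1.09, adjusted p = 0.0784), and without the latter Rnaseh2c was called (1.91, adjusted p = 0.0309). In ER-Hoxb8 MLCs against ER-Hoxb8 macrophages 3 of 7 were called, where 34.7% of all tested genes were. Trex1 was higher by 3.18 ± 0.45 (adjusted p = 7.18e-06) and Samhd1 by 1.55 ± 0.36 (adjusted p = 0.00198). Rnaseh2a was lower by 1.01 ± 0.37 (adjusted p = 0.0367), but not called without ER-Hoxb8 macrophage replicate 1 (adjusted p = 0.107), 2 (0.0845) or 3 (0.0851) or MLC replicate 4 (0.0798). Rnaseh2c differed by 1.34 ± 0.58 (adjusted p = 0.0737) and was called without ER-Hoxb8 macrophage replicate 1 (1.83, adjusted p = 0.0439) or MLC replicate 1 (1.54, adjusted p = 0.0428).

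In culture, ER-Hoxb8 against BMD macrophages asks whether the line makes the same macrophage as marrow. Here limma called 0 of 7 members, where 1.97% of all tested genes were called, and 0 had unadjusted p below 0.05. Samhd1 differed by 0.84 ± 0.42 (adjusted p = 0.6) and Adarb1 by -1.73 ± 0.92 (adjusted p = 0.679).

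Over the 27 brain-set libraries, whose r again follows the groups they share, Adar was closest to Pdlim2, Tor3a and Rnf31 (each 0.92), Adarb1 to Gm7694 (0.88), Cacna1a (0.85) and Ldoc1l (0.84), Trex1 to Gbp3 (0.91), Etv6 (0.90) and Pydc3 (0.89), and Samhd1 to Epsti1 (0.93), AB124611 (0.92) and Pyhin1 (0.92). Rnaseh2a was closest to Nans (0.93), Mrpl28 (0.91) and Txn2 (0.90), Rnaseh2b to Mrps25 (0.87), Fundc2 (0.85) and Tmem171 (0.84), and Rnaseh2c to Mpc2 (0.91), Ttc32 (0.91) and Hint2 (0.86). Between members r was 0.57 for Trex1 and Samhd1, 0.19 for Adar and Trex1, 0.73 for Adar and Rnaseh2a and 0.42 for Adar and Rnaseh2b, so the pairs seen in the baricitinib series do not hold alike in this set.

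The early set holds the marrow cells and the line before macrophages form. Adar was at 5.36, 5.11 and 5.63 in marrow progenitors, 6.32, 6.21 and 5.56 in monocytes, 4.69, 5.81 and 5.10 in ER-Hoxb8 progenitors and 5.69, 5.56 and 5.28 at day 4, and these groups overlap. Trex1 was at 3.94, 4.27 and 4.28 in marrow progenitors, 6.44, 6.39 and 6.61 in monocytes, 4.42, 4.85 and 3.29 in ER-Hoxb8 progenitors and 4.78, 5.16 and 4.76 at day 4. Monocytes stand above all others for Trex1. Samhd1 was at 5.85, 6.50 and 6.14 in marrow progenitors, 8.60, 8.61 and 8.26 in monocytes, 7.90, 8.05 and 6.62 in ER-Hoxb8 progenitors and 7.65, 8.13 and 6.82 at day 4. Marrow progenitors are lowest and monocytes highest for Samhd1, without overlap with the line.

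Rnaseh2a was at 6.94, 6.55 and 6.69 in marrow progenitors, 5.70, 5.82 and 6.10 in monocytes, 4.99, 5.21 and 6.16 in ER-Hoxb8 progenitors and 5.84, 5.47 and 5.91 at day 4, so marrow progenitors are highest. Rnaseh2b was at 6.43, 6.09 and 6.33 in marrow progenitors, 6.39, 6.37 and 6.49 in monocytes, 5.02, 4.73 and 5.79 in ER-Hoxb8 progenitors and 5.65, 4.57 and 5.48 at day 4, and the line is lower than marrow cells. Rnaseh2c was at 5.07, 5.29 and 5.68, then 3.55, 5.55 and 5.29, then 3.15, 4.68 and 4.78, then 4.34, 4.45 and 4.44 in the same order. Adarb1 was below 1 log2 CPM in all 12 libraries, at 0.74, 0.95 and -2.33 in monocytes, and at the lowest value of -4.34 in ER-Hoxb8 progenitor replicates 1 and 3.

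Monocytes arise from marrow progenitors as division slows. In monocytes against progenitors 2 of 6 members were called, where 13.7% of all tested genes were. Trex1 was higher by 2.31 ± 0.35 (adjusted p = 0.0022) and Samhd1 by 2.33 ± 0.41 (adjusted p = 0.00459). Rnaseh2a differed by -0.85 ± 0.30 (adjusted p = 0.0763). Markers of several cell kinds move with this step. Summed over their lists, erythroid markers go from 1410, 3210 and 3840 CPM in progenitors to 333, 220 and 86.3 in monocytes, B and T cell markers from 123, 769 and 554 to 62.7, 87.1 and 84.5, progenitor markers from 522, 346 and 387 to 148, 136 and 102, and macrophage markers from 133, 189 and 170 to 1460, 1400 and 1230. Whether these shifts bear on Trex1 and Samhd1 was not tested.

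The ER-Hoxb8 progenitors are held by the fusion protein in place of the marrow. Against marrow progenitors 3 of 6 members were called in them, where 25.6% of all tested genes were. With only these groups in the fit, limma called 0 members and 16.9% of genes. Rnaseh2a was lower by 1.27 ± 0.30 (adjusted p = 0.00812, and 0.0529 in the fit of these groups alone). Samhd1 was higher by 1.36 ± 0.41 (adjusted p = 0.0293), but not called without marrow progenitor replicate 1 (adjusted p = 0.106) or 3 (0.0843) or ER-Hoxb8 replicate 1 (0.103) or 2 (0.08). Rnaseh2b was lower by 1.11 ± 0.33 (adjusted p = 0.0273), but not called without any marrow replicate (adjusted p of 0.0902, 0.0527 and 0.0847) or ER-Hoxb8 replicate 1 (0.0819) or 2 (0.0744). The ER-Hoxb8 progenitors differ among themselves in macrophage markers, with 1870, 4870 and 430 CPM summed over 6 genes and Cd68 on top in replicates 1 and 2, and whether this sets Samhd1 was not tested. Other cell kinds differ too between ER-Hoxb8 and marrow progenitors. Erythroid markers sum to 2.92, 1.61 and 3.04 CPM in ER-Hoxb8 progenitors, and B and T cell markers to 1.92, 19.5 and 2.66. Neutrophil markers sum to 53.4, 47.6 and 2770 against 6550, 23100 and 19600 in marrow. Progenitor markers sum to 41, 19.5 and 96.4 against 522, 346 and 387 in marrow. Of 15 replication genes 10 were called lower in ER-Hoxb8 progenitors (median -1.92 against -0.08 over all tested genes). From ER-Hoxb8 progenitors to day 4 limma called 0 of 6 members, where 0% of all tested genes were called, and 0 had unadjusted p below 0.05. That fit leaves replicates unpaired, although residuals of equal replicate numbers correlated at 0.23 to 0.43 here. A shift common to the lines can therefore be missed.

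Trex1 was called higher in sgRNA 1 macrophages and in KO macrophages at 0 uM, in NTC macrophages against their progenitors, in monocytes and in ER-Hoxb8 MLCs against microglia. Samhd1 was called in the same comparisons, but its calls in edited macrophages were lost without single libraries. Adar was called in these comparisons except in monocytes, and in ER-Hoxb8 MLCs not with the WTHox libraries alone. At 10 uM baricitinib KO libraries had less Adar mRNA than NTC libraries, a call lost without NTC replicate 1 (-1.27) or KO replicate 1 (-1.16). All values are mRNA levels, with 2 to 9 libraries per group, and edited groups are pools. Protein, editing and enzyme activity were not analysed here, the sgRNA 2 cells have no control in their set, and the guide and baricitinib experiments cannot be compared in level.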

How the data were processed

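RNA-seq of 92 mouse libraries was read from the deposited table of 29957 rows. The authors pseudoaligned reads with kallisto 0.46.0 and deposited log2 CPM scaled by the TMM method of edgeR, so values are used without further scaling. A named gene is a row with a gene symbol, which holds for 29956 rows, and the 1 row without a name takes 0.00226 to 0.0585% of a library. Libraries were split into 6 sets by their shared lowest value, and no value was compared between sets. The files give no read counts, so depth is known only under an assumed prior count of 2, and precision is given by the standard errors.

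Tests used limma 3.58.1 in R 4.3.3 (group means, moderated t with trend, Benjamini-Hochberg over all genes tested), on genes above 1 CPM in at least 3 libraries, or 6 in the brain set, and a gene is called at adjusted p below 0.05. The fit was tested on simulated data for 3 of the comparisons, where the share of false calls was below 0.05 for KO against NTC at 0 uM and above it for sgRNA 1 against NTC macrophages and for ER-Hoxb8 MLCs against microglia, and the share of added shifts found was lowest in the last. The study's rule also asks for a log2 fold change of at least 2 in size. There are 29 comparisons. Beside the count of members called in each comparison stands the share of all tested genes called in the same comparison. The members, and lists of interferon-stimulated genes, replication genes, other genes of the disease, other deaminases and other nucleases, were chosen with earlier results of these data known.

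Groups follow the titles. The treatment protocol gives baricitinib doses of 0.00064 and 0.16 uM where the titles give 0.0006 and 0.016 uM, and the titles are used. NTC macrophage replicate 2 shares its lowest value with no other library and was left out of the fits. Replicate numbers were checked for pairing. Residuals of equal numbers correlated above 0.1 in every pair for sgRNA 1 against NTC progenitors, for day 4 against ER-Hoxb8 progenitors and for sgRNA 1 against NTC macrophages, which has 2 pairs. Alternatives were an offset of 1, no filter, quantile normalization, a replicate block, only the groups compared, leaving out each library, keeping NTC replicate 2, only the WTHox libraries of the ER-Hoxb8 MLCs, and blocks of neighbouring library numbers. Promoter sequences were searched and tables and figures made with Python 3.11.15, numpy 2.4.6, pandas 2.3.3 and matplotlib 3.10.9.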

Additional observations from a re-analysis of the deposited data

Results flagged for a closer look

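In groups of 4 to 10 libraries, the highest or lowest library was marked where its gap to the next exceeded a Dixon limit. Of 49 such tests 6 were marked, and chance marks about 1 in 20. They are Adarb1 (-2.43) and Rnaseh2a (2.44) in microglia replicate 8, Trex1 (4.40) in NTC macrophages at 0.4 uM replicate 4, Samhd1 (11.25) in ER-Hoxb8 MLC replicate 6, Rnaseh2a (3.57) in ER-Hoxb8 MLC replicate 4 and Rnaseh2a (6.06) in Adar1 KO macrophages at 10 uM replicate 2. Groups of 3, which include the KO group at 0.4 uM, were not tested this way.

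An effect that differs between groups by its own test was marked as well. The knockout effect changed from 0 to 10 uM for Adar by -3.21 and for Rnaseh2a by 0.81. The sgRNA 1 effect differed between macrophages and progenitors for Trex1 by 1.64. It also did for Adar by 1.03, but that call (adjusted p = 0.0355) was lost in 10 of the 11 fits that leave out 1 library, without a filter and with NTC macrophage replicate 2 kept. The cause was not tested.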

How the results depend on the processing

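Of 2552 results for single genes under an alternative, 2405 stayed on their side of the threshold, 81 were no longer called and 66 became called. Of the 2405, 880 were called in both fits, of which 0 changed sign, and 1525 in neither, of which 74 changed sign. Counts of members called moved as follows, each given with the share of all tested genes called under that alternative. With only the groups compared in the fit, the count went from 0 to 4 (22.6%) for 10 against 0 uM in NTC, from 2 to 6 (39.8%) for the change of the knockout effect, from 3 to 0 (16.9%) for ER-Hoxb8 against BM progenitors, from 2 to 4 (46.7%) for BMD MLCs against BMD macrophages, from 2 to 0 (2.18%) for KO against NTC at 0.4 uM and from 2 to 0 (3.64%) for 0.4 against 0 uM in KO. With quantile normalization it was 1 (15%) for 10 against 0 uM in NTC and 4 (30.1%) for BMD MLCs against BMD macrophages. With library numbers in runs of 5 as a block it was 1 (14.2%) for 10 against 0 uM in NTC. With only the WTHox libraries it was 3 (35%) for ER-Hoxb8 MLCs against microglia and 1 (16.6%) for ER-Hoxb8 against BMD MLCs. Without a filter it was 1 (5.25%) for the sgRNA 1 effect between macrophages and progenitors and 1 (6.18%) for KO against NTC at 0.4 uM. With NTC macrophage replicate 2 kept it was 1 (18.5%) for the sgRNA 1 effect between macrophages and progenitors.

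Leaving out each library in turn gave 0 to 2 members for KO against NTC at 10 uM, 0 to 4 for 10 against 0 uM in NTC, 2 to 6 for the change of the knockout effect, 1 to 3 for ER-Hoxb8 against BM progenitors, 1 to 2 for BMD MLCs against BMD macrophages, 1 to 3 for BMD MLCs against microglia, 1 to 3 for ER-Hoxb8 against BMD MLCs, 1 to 2 for the sgRNA 1 effect between macrophages and progenitors, 2 to 6 for KO against NTC at 0.0006 uM, 0 to 5 at 0.4 uM, and 0 to 6 for 0.4 against 0 uM in KO. It gave 2 to 3 for sgRNA 1 against NTC macrophages, 3 to 5 for KO against NTC at 0 uM, 5 to 6 at 0.016 uM, 2 to 4 for ER-Hoxb8 MLCs against macrophages and 4 to 6 for ER-Hoxb8 MLCs against microglia. Leaving out KO replicate 2 at 0.4 uM from comparisons of other groups was chosen after seeing the data.

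With the replicate number as a block (replicate block), the count went from 2 to 3 for the change of the knockout effect, from 2 to 3 for BMD MLCs against microglia and from 5 to 6 for KO against NTC at 0.016 uM, and stayed at 3 for sgRNA 1 against NTC macrophages and at 0 for sgRNA 1 against NTC progenitors and for day 4 against ER-Hoxb8 progenitors. Quantile normalization moved the median of all genes by more than 0.1 in sgRNA 1 against NTC macrophages (-0.12), ER-Hoxb8 against BM progenitors (0.13), ER-Hoxb8 MLCs against macrophages (0.13), BMD MLCs against microglia (-0.11), ER-Hoxb8 against BMD MLCs (0.18) and the sgRNA 1 effect between macrophages and progenitors (-0.13). The cause of these changes was not tested.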
